A study of Mus musculus with 9 samples.

Results

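The genes for collagen chains were followed in neonatal mouse cardiac fibroblasts, the stromal cells that make most of the heart's matrix. Members were all rows of the deposited expression table whose symbol is Col, a number, a and a number, which gave 44 genes among 34779 named rows. Of these, 32 had a mean of at least 1 TPM over the 9 libraries and were tested, among 13228 such genes in all. TPM is the transcript share of a gene corrected for its length within a library, scaled to the same total for each library, so levels of different genes can be set side by side, but read depth is not recorded. The 9 libraries form 3 groups of 3, each of wild-type (WT) neonatal cardiac fibroblasts infected with virus 24 h after seeding and collected 14 days after infection. The MGT+TMP269 group received a virus for the transcription factors Mef2c, Gata4 and Tbx5 and was kept with TMP269, which blocks class IIa histone deacetylases and which the series calls an HDAC4 inhibitor. The MGT group received the same virus without the compound. The DsRed group received a virus for the red fluorescent protein DsRed and is the negative control, and the labels name no vehicle for either untreated group. The series asked how TMP269 affects the turning of fibroblasts into cardiomyocyte-like cells by the MGT mixture. The labels call the replicates biological but give no culture or animal behind a replicate number, and they give no dose of TMP269 and no promoter of the virus. The spread behind each p-value is that between these libraries, and how much of it is technical is not known.

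Collagens are trimers of alpha chains wound into a triple helix, and each chain has its own gene. Fibrillar collagens build the cables that carry tension, type IV forms the sheet of basement membranes, type VI forms beaded filaments around cells, and the FACIT collagens sit on the surface of fibrils. In the heart, cardiac fibroblasts are known as the main source of types I and III, the collagens of the interstitium and of scars, and expression of their genes is widely used to mark the fibroblast state.

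One library stood apart. DsRed replicate 2 correlated with the other DsRed libraries at Pearson's r of 0.942 to 0.943 across tested genes on the log2 scale, against 0.973 between those 2 and 0.978 to 0.981 within the other groups (genes are not independent replicates). Collagen chain transcripts made up 0.740% of the TPM of named genes in it, against 1.41% and 1.53% in DsRed replicates 1 and 3. This library widens the error of every comparison, because all 9 libraries share 1 estimate of the spread, and results that rest on it are also given without it. The summed TPM of 8 fibroblast markers (Pdgfra, Tcf21, Ddr2, Thy1, Vim, S100a4, Postn and Dcn) was 7856 in DsRed replicate 2 and 7246 and 7423 in the other DsRed libraries, and none of these genes was under 1 TPM in every group. Vim and S100a4 carried most of that sum, with S100a4 at 1908 TPM in DsRed replicate 2 and 988 and 1131 TPM in replicates 1 and 3. Some other markers were lower in DsRed replicate 2, with Pdgfra at 12.4 TPM (30.1 and 39.6 TPM in replicates 1 and 3), Ddr2 at 18.0 TPM (52.2 and 51.0 TPM), Postn at 530.3 TPM (999 and 800.3 TPM) and Dcn at 472 TPM (621 and 640.4 TPM). Tcf21 at 481 TPM (439 and 526 TPM) and Thy1 at 204 TPM (195 and 206 TPM) lay between replicates 1 and 3. Vim was highest in replicate 2 among the DsRed libraries, at 4230 TPM (3922 and 4029 TPM). All 3 delivered factors were called higher with the MGT virus in both comparisons with DsRed, and none of them was called different between MGT+TMP269 and MGT. Mef2c was at 34.2 TPM in DsRed replicate 2 (7.64 and 7.54 TPM in replicates 1 and 3), against a mean of 648 TPM in MGT. Gata4 and Tbx5 were lower in DsRed replicate 2 than in replicates 1 and 3.

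Together, the 44 collagen chain genes were lower with TMP269, and the loss was uneven. Their summed TPM was 5194, 5461 and 5428 in the MGT+TMP269 libraries, 11683, 10972 and 11501 in the MGT libraries and 13940.3, 7303 and 15066 in the DsRed libraries. Every MGT+TMP269 library lay below every MGT and every DsRed library, whereas the MGT values fell between the low DsRed library and the other DsRed ones. The mean sum in MGT+TMP269 was 0.471 times that in MGT (exact permutation test, two-sided, p = 0.1) and 0.443 times that in DsRed (exact p = 0.1). In MGT it was 0.941 times that in DsRed (exact p = 1). Without DsRed replicate 2 the log2 difference of the MGT sum from the DsRed sum was −0.35, with every MGT library below DsRed replicates 1 and 3. Without Col1a1, Col1a2 and Col3a1, the sum in MGT+TMP269 was 0.729 times that in MGT (exact p = 0.1) and 0.762 times that in DsRed (exact p = 0.4), with DsRed replicate 2 below every MGT+TMP269 library, and in MGT it was 1.05 times that in DsRed (exact p = 1). With 3 libraries against 3, no exact test can go below 0.1. Because TPM has a fixed total and the cultures are bulk samples, fewer collagen-making cells and less collagen RNA per cell cannot be told apart.

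Single genes were tested with limma on log2(TPM + 1), with Benjamini-Hochberg adjustment over all 13228 genes, and called at an adjusted p under 0.05. Log2 fold changes below come from that scale with their SE, and for genes at low TPM they are smaller than the true change, whereas folds are ratios of mean TPM. Between MGT+TMP269 and MGT, limma called 15 of the 32 tested collagen genes lower, where 5.97% of all tested genes were called lower and 9.29% in either direction. It called 0 higher, where 3.32% of all genes were, and 2 were higher at an unadjusted p under 0.05. The median log2 fold change was −0.80 over the tested collagen genes and 0.11 over all tested genes. The libraries of the 2 groups did not overlap for 22 members that were lower and 3 that were higher, where 16.6% and 32.7% of all tested genes had such groups. Leaving out DsRed replicate 2 gave 19 lower and 2 higher (Col14a1 and Col4a5), in a fit that called 11.3% of all tested genes lower and 19.3% higher. Of the 15 genes called lower with all libraries, 12 kept their call in every fit without 1 library, and Col4a4, Col5a1 and Col16a1 did not.

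Between MGT+TMP269 and DsRed, limma called 14 collagen genes lower and 5 higher, where 8.06% and 14.7% of all tested genes were called lower and higher, 22.8% in all. Without DsRed replicate 2 it called 18 lower and 6 higher, where 15.3% and 21.4% of all tested genes were called. Between MGT and DsRed it called 4 lower and 8 higher, against 4.18% and 8.14% of all tested genes, 12.3% in all. Without DsRed replicate 2 these counts were 11 lower and 9 higher, against 13.8% and 12.5% of all tested genes, so the calls among all genes grew as well. The median log2 fold changes over the tested collagen genes were −0.66 for MGT+TMP269 against DsRed and 0.03 for MGT against DsRed, and over all tested genes they were 0.22 and 0.11. The libraries did not overlap between MGT+TMP269 and DsRed for 14 members that were lower and 7 that were higher, against 12.1% and 29.8% of all tested genes. Between MGT and DsRed they did not overlap for 6 lower and 10 higher members, against 9.63% and 19.1%. These 3 comparisons share libraries in pairs, so their calls are not independent of each other. In both comparisons with DsRed, 5 of the genes called higher (Col4a3, Col4a4, Col10a1, Col20a1 and Col22a1) had a mean under 1 TPM in DsRed, and they passed the filter only through the groups in which they were high. In all, 9 of the 32 tested members had a mean under 1 TPM in some group, so these counts describe the members that passed the filter. The medians over all genes were 0.11, 0.22 and 0.11 (MGT+TMP269 against MGT, MGT+TMP269 against DsRed, MGT against DsRed), and median-ratio scaling, which brought them to 0.00, −0.01 and −0.01, lowers the log2 fold changes of the 25 members given in every library by 0.0191 to 0.115, by 0.0767 to 0.253 and by 0.0257 to 0.138 in the same order of comparisons, with medians of 0.112, 0.247 and 0.136. With that scaling, genes called higher were 47.1% of all called genes for MGT+TMP269 against DsRed (64.7% without it) and 56.1% for MGT against DsRed (66.1% without it).

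**Figure D1:**
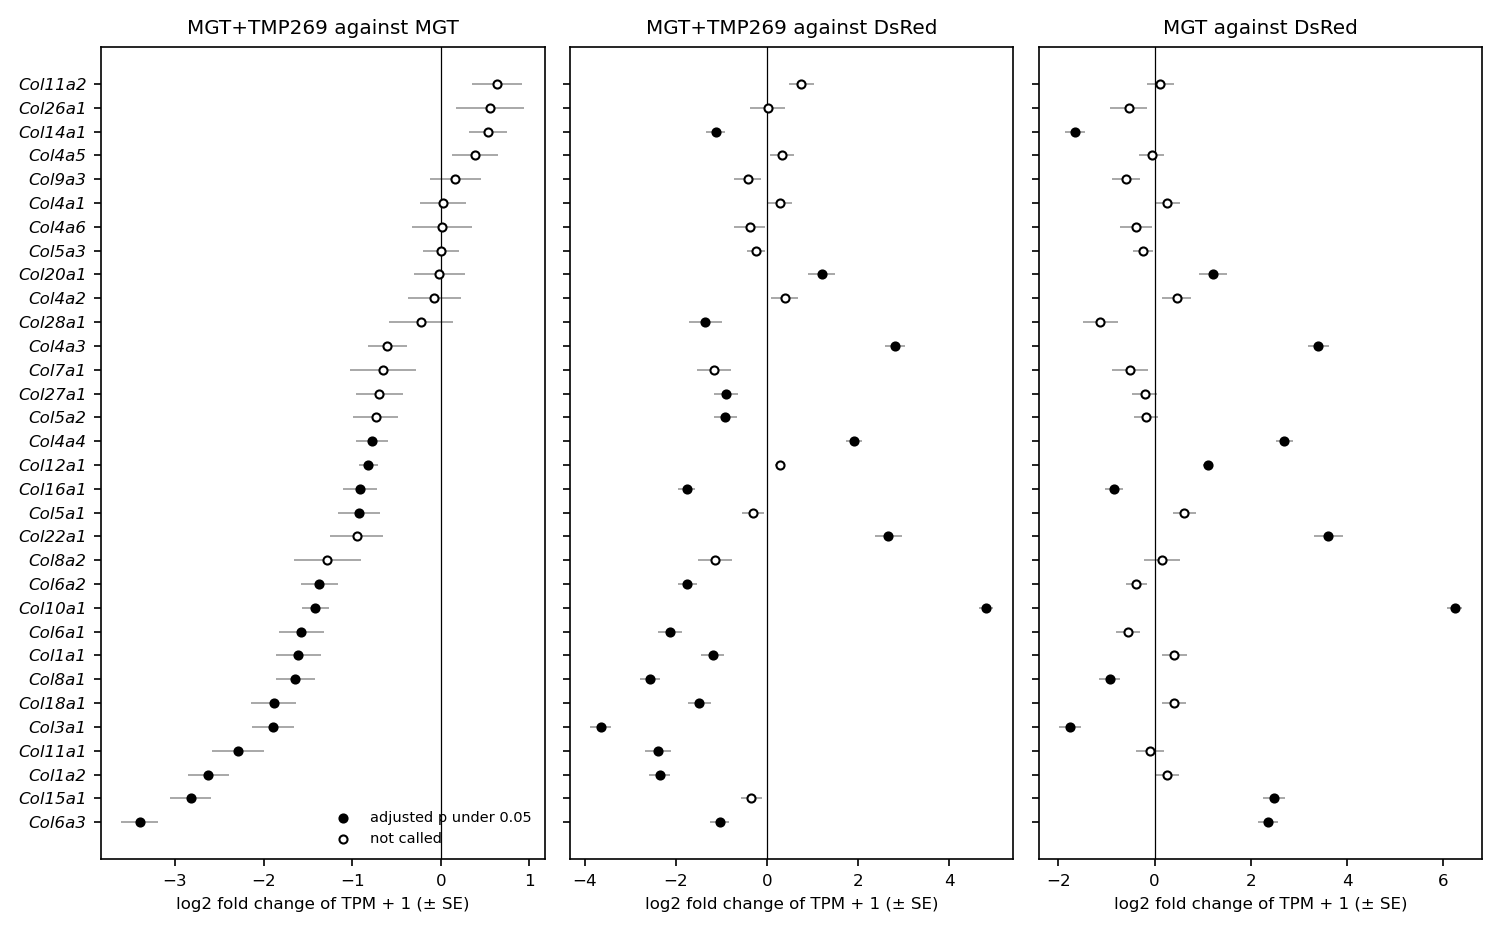
Log2 fold changes of TPM + 1 (horizontal axis, ± SE from limma) of the 32 tested collagen chain genes (rows, ordered by the left panel) in the 3 comparisons, with filled points for an adjusted p under 0.05. In the left panel, MGT+TMP269 against MGT, all 15 filled points lie below 0. In the middle and right panels, against DsRed, filled points lie on both sides, with Col10a1 farthest to the right at 4.82 and 6.24.

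Most of the lower collagen sum with TMP269 lay in the fibrillar chains. Of 11 fibrillar genes, 9 were tested. With TMP269, 5 were lower than in MGT and 6 lower than in DsRed, where 5.97% and 8.06% of all tested genes were lower. None was higher in either comparison, where 3.32% and 14.7% of all tested genes were. Col1a1 and Col1a2 encode the chains of type I collagen, in which the alpha1 chain outnumbers the alpha2 chain. Col1a1 was at 1089, 1111 and 1132 TPM in the MGT+TMP269 libraries, 3572, 3187 and 3409.6 TPM in the MGT libraries and 3131, 1520.0 and 3469.7 TPM in the DsRed libraries. The MGT+TMP269 values were the lowest 3, and MGT and DsRed overlapped. Col1a1 fell 3.05-fold with TMP269 against MGT (log2 −1.61 ± 0.26, adjusted p = 0.00436) and 2.44-fold against DsRed (log2 −1.20 ± 0.26, adjusted p = 0.00972), and was not called between MGT and DsRed (adjusted p = 0.379). Col1a2 was at 337, 345 and 371 TPM in the MGT+TMP269 libraries, 2189.7, 2111 and 2206 TPM in the MGT libraries and 2214, 1134 and 2335 TPM in the DsRed libraries. It fell further than Col1a1, 6.18-fold against MGT (log2 −2.63 ± 0.23, adjusted p = 0.000183) and 5.40-fold against DsRed (log2 −2.36 ± 0.23, adjusted p = 8.94e-05), and was not called between MGT and DsRed (adjusted p = 0.542).

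Col3a1, whose chains form homotrimers that share fibrils with type I, was at 172, 200.4 and 237 TPM in the MGT+TMP269 libraries, 803, 667 and 791 TPM in the MGT libraries and 2998, 1682 and 3270.4 TPM in the DsRed libraries. The 3 groups did not overlap, and their order was MGT+TMP269, MGT and DsRed from low to high. It fell 3.51-fold in MGT against DsRed (log2 −1.76 ± 0.24, adjusted p = 0.000858), 3.71-fold in MGT+TMP269 against MGT (log2 −1.89 ± 0.24, adjusted p = 0.0011) and 13.0-fold in MGT+TMP269 against DsRed (log2 −3.65 ± 0.24, adjusted p = 5.1e-06, and 15.4-fold without DsRed replicate 2). No other fibrillar gene was called between MGT and DsRed in this fit. Without DsRed replicate 2, Col5a2 (log2 −0.55, adjusted p = 4.1e-05) and Col11a1 (log2 −0.52, adjusted p = 0.00282) were called lower too, as they were with all libraries under array weights (adjusted p = 0.00182 and 0.0217), and Col5a1 was called higher (log2 0.28, adjusted p = 0.0308; adjusted p = 0.0418 without DsRed replicate 3).

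Type V chains start and limit the growth of type I fibrils. Col5a1 was at 207, 213 and 194 TPM in the MGT+TMP269 libraries, 394, 372 and 404 TPM in the MGT libraries and 298, 159.8 and 345 TPM in the DsRed libraries. The MGT libraries were the highest of the 9 and the MGT+TMP269 libraries lay among the DsRed ones. Its fall with TMP269 against MGT, 1.90-fold (log2 −0.93 ± 0.24, adjusted p = 0.042), lost its call in each of the 6 fits without 1 MGT+TMP269 or MGT library (highest adjusted p = 0.139). Against DsRed its lower value with TMP269 was not called (adjusted p = 0.369), but was without DsRed replicate 2 (log2 −0.65, adjusted p = 0.000398), under median-ratio scaling (adjusted p = 0.0208) and with array weights (adjusted p = 0.00155). Col5a2 was at 593, 614 and 614 TPM in the MGT+TMP269 libraries, 1036, 979 and 1019 TPM in the MGT libraries and 1483, 687 and 1488 TPM in the DsRed libraries. All MGT+TMP269 values were below all others, but the difference from MGT missed the threshold (log2 −0.74 ± 0.26, adjusted p = 0.123) and passed it without DsRed replicate 2 (adjusted p = 1.14e-05). Against DsRed, Col5a2 was lower with TMP269 (log2 −0.92 ± 0.26, adjusted p = 0.0299), a call lost without any 1 of the MGT+TMP269 libraries, DsRed replicate 1 or DsRed replicate 3, or MGT replicate 3 (adjusted p up to 0.0883). Col11a1, the alpha1 chain of the cartilage fibril collagen XI, was at 27.9, 23.3 and 26.8 TPM in the MGT+TMP269 libraries, 131, 126 and 135 TPM in the MGT libraries and 183, 78.7 and 191 TPM in the DsRed libraries. It fell 5.02-fold with TMP269 against MGT (log2 −2.29 ± 0.29, adjusted p = 0.00126) and 5.81-fold against DsRed (log2 −2.39 ± 0.29, adjusted p = 0.000338).

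The remaining fibrillar genes were scarce. Col5a3, Col11a2 and Col27a1 had group means of 1.01 to 3.76 TPM, of which only Col27a1 was called, lower in MGT+TMP269 (1.44 ± 0.266 TPM) than in DsRed (3.76 ± 1.83 TPM, SD, n = 3 each, limma adjusted p = 0.0384). Col2a1, the main cartilage collagen, and Col24a1 stayed below the filter, with group means of at most 0.738 TPM.

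Type I chains changed their proportion. The Col1a1/Col1a2 ratio within a library, which no scaling between libraries can alter, was 3.23, 3.22 and 3.05 in the MGT+TMP269 libraries, 1.63, 1.51 and 1.55 in the MGT libraries and 1.41, 1.34 and 1.49 in the DsRed libraries. It was higher in all MGT+TMP269 libraries than in all others, and higher in all MGT than in all DsRed libraries, with a log2 difference of 1.02 for MGT+TMP269 against MGT and 0.14 for MGT against DsRed (exact permutation p = 0.1 for each). The Col3a1/Col1a1 ratio was 0.158, 0.180 and 0.209 in the MGT+TMP269 libraries, 0.225, 0.209 and 0.232 in the MGT libraries and 0.958, 1.11 and 0.943 in the DsRed libraries. Here the step lay between the DsRed libraries and both MGT groups, with a log2 difference of −2.17 for MGT against DsRed (exact p = 0.1), while MGT+TMP269 and MGT overlapped (log2 −0.29, exact p = 0.2). The Col5a1/Col5a2 ratio was 0.349, 0.348 and 0.316 in the MGT+TMP269 libraries, 0.380, 0.380 and 0.397 in the MGT libraries and 0.201, 0.233 and 0.232 in the DsRed libraries, lowest in DsRed and highest in MGT with no overlap between groups (exact p = 0.1 for each of the 3 comparisons). DsRed replicate 2, low in the level of most of these chains, lay close to the other DsRed libraries in all 3 ratios. In all, 8 ratios were computed in 3 comparisons each, and none of their tests can pass 0.05 with 3 libraries a group; Col8a1/Col8a2 is not given because Col8a2 had a mean under 1 TPM in MGT+TMP269.

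**Figure D2:**
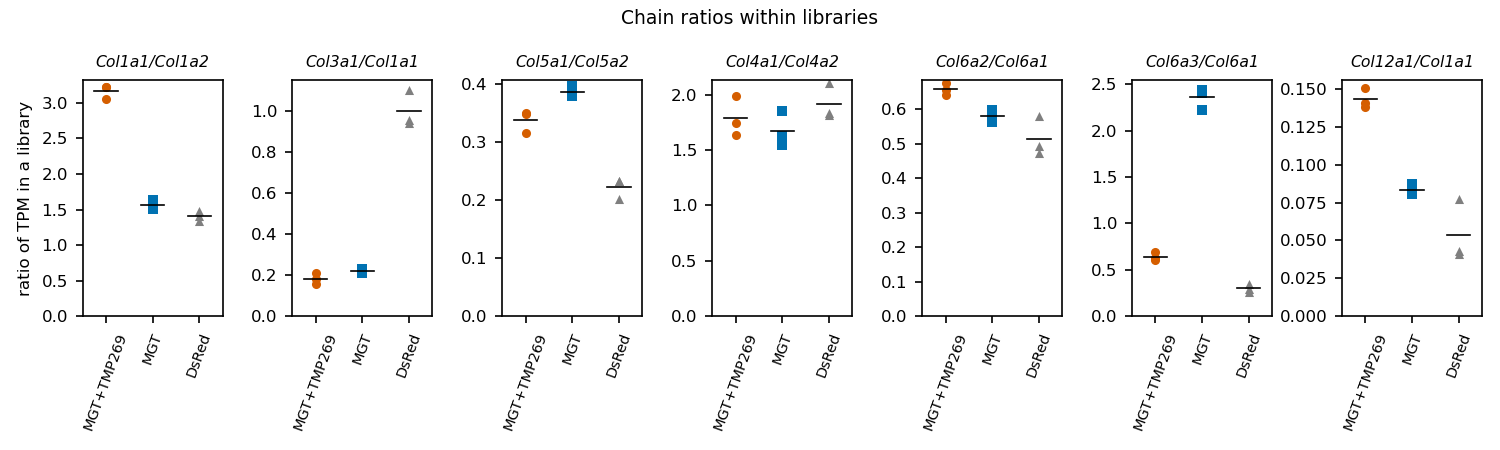
Ratio of the TPM of 2 collagen chains within each library (vertical axes, from 0), for 7 chain pairs, with 1 point per library and a bar at the mean of 3. The Col1a1/Col1a2 ratio is highest in MGT+TMP269, the Col3a1/Col1a1 ratio is near 1 in DsRed and near 0.2 in both MGT groups, and the Col6a3/Col6a1 ratio is highest in MGT.

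The bases before the RefSeq transcription start are given 5′ to 3′ for Col1a2, the fibrillar gene with the lowest log2 fold change of MGT+TMP269 against MGT, and for Col3a1, the one with the lowest against DsRed (build GRCm38.p6, which is not the build mm9 named by the submitters). Capitals mark the letters AGGTGT, a core of T-box sites, in Col1a2 and the letters TATAAA in Col3a1.
Col1a2 chr6:4505368-4505617 (plus strand): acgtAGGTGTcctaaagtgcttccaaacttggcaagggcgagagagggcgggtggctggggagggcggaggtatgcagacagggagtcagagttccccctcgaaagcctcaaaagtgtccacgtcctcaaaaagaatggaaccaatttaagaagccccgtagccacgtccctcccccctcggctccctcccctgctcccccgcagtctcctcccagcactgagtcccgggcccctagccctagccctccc
Col3a1 chr1:45311288-45311537 (plus strand): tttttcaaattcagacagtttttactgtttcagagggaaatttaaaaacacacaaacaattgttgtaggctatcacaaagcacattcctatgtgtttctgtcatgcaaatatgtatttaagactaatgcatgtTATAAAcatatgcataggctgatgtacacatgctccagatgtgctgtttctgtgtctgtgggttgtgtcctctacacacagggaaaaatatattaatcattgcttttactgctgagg

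The main basement membrane chains were not called in any comparison. All 6 collagen IV genes were tested, and against MGT 1 was lower with TMP269 and none was higher. Of all tested genes, 5.97% were lower and 3.32% higher in that comparison. Col4a1 and Col4a2 encode the chains of the common type IV network and are neighbours whose RefSeq gene models overlap. Col4a1 was at 1300.2, 1506 and 1376 TPM in the MGT+TMP269 libraries, 1425, 1320.5 and 1360.1 TPM in the MGT libraries and 1369.8, 690.1 and 1572 TPM in the DsRed libraries. Col4a2 was at 795, 758 and 789.9 TPM in the MGT+TMP269 libraries, 771, 855 and 838 TPM in the MGT libraries and 746, 328 and 867 TPM in the DsRed libraries. For both genes the groups overlapped in every comparison, DsRed replicate 2 was the lowest library, and the log2 differences between MGT+TMP269 and MGT were 0.02 ± 0.26 for Col4a1 and −0.07 ± 0.30 for Col4a2 (limma adjusted p = 0.973 and 0.927), with the Col4a1 value at −0.09 under median-ratio scaling. Their ratio was 1.64, 1.99 and 1.74 in the MGT+TMP269 libraries, 1.85, 1.54 and 1.62 in the MGT libraries and 1.84, 2.10 and 1.81 in the DsRed libraries, and overlapped between all groups.

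Col4a5, a chain of the kidney and smooth muscle networks, was at 181, 191 and 193 TPM in the MGT+TMP269 libraries, 149, 143 and 139 TPM in the MGT libraries and 197, 88.7 and 194 TPM in the DsRed libraries. All MGT+TMP269 libraries were above all MGT libraries (log2 0.39 ± 0.26, adjusted p = 0.452), a difference that was called without DsRed replicate 2 (adjusted p = 0.000973), with array weights (0.00221) and in a fit of those 2 groups alone (0.0013). It was not called between MGT and DsRed (adjusted p = 0.912), but was lower in MGT without that library (log2 −0.44, adjusted p = 0.000719) and with array weights, which give each library its own weight (adjusted p = 0.0139). Its partner Col4a6 had group means of 6.52 to 9.69 TPM and was not called in any comparison.

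Col4a3 and Col4a4 encode partner chains of the glomerular network and are neighbours with overlapping RefSeq models, so reads in the overlap may be shared. Col4a3 was at 7.18, 8.97 and 10.9 TPM in the MGT+TMP269 libraries, 12.6, 13.3 and 16.4 TPM in the MGT libraries and 0.705, 0.166 and 0.434 TPM in the DsRed libraries. Col4a4 was at 3.95, 3.98 and 3.54 TPM in the MGT+TMP269 libraries, 7.86, 7.57 and 6.47 TPM in the MGT libraries and 0.312, 0.154 and 0.385 TPM in the DsRed libraries. Both genes were under 1 TPM in every DsRed library and above 3 TPM in every library with the MGT virus. In MGT against DsRed they rose by log2 3.41 ± 0.22 and 2.69 ± 0.18 (limma adjusted p = 7.23e-06 and 8.59e-06), and in MGT+TMP269 against DsRed by 2.80 ± 0.22 and 1.91 ± 0.18 (adjusted p = 1.9e-05 and 6.15e-05). Between MGT+TMP269 and MGT, Col4a4 was lower (log2 −0.78 ± 0.18, adjusted p = 0.0256), a call lost without any 1 of these 6 libraries (adjusted p up to 0.114), and Col4a3 was not called (log2 −0.60 ± 0.22, adjusted p = 0.143, and adjusted p = 0.0314 without DsRed replicate 2).

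The make-up of the collagen transcripts differed between the groups. Fibrillar genes made up 46.8, 46.0 and 47.5% of the collagen TPM in the MGT+TMP269 libraries, 69.6, 67.9 and 69.3% in the MGT libraries and 74.0, 72.1 and 73.8% in the DsRed libraries. Collagen IV genes made up 44.1, 45.3 and 43.9% in the MGT+TMP269 libraries, 20.3, 21.4 and 20.6% in the MGT libraries and 16.7, 15.2 and 17.6% in the DsRed libraries. For both shares the 3 groups did not overlap (exact permutation p = 0.1 for each comparison). The summed collagen IV TPM itself overlapped between MGT+TMP269 (2292 to 2474) and MGT (2345 to 2373, exact p = 0.7), while the fibrillar sum was lower, 2433 to 2580.3 in MGT+TMP269 and 7449.6 to 8135 in MGT.

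**Figure D3:**
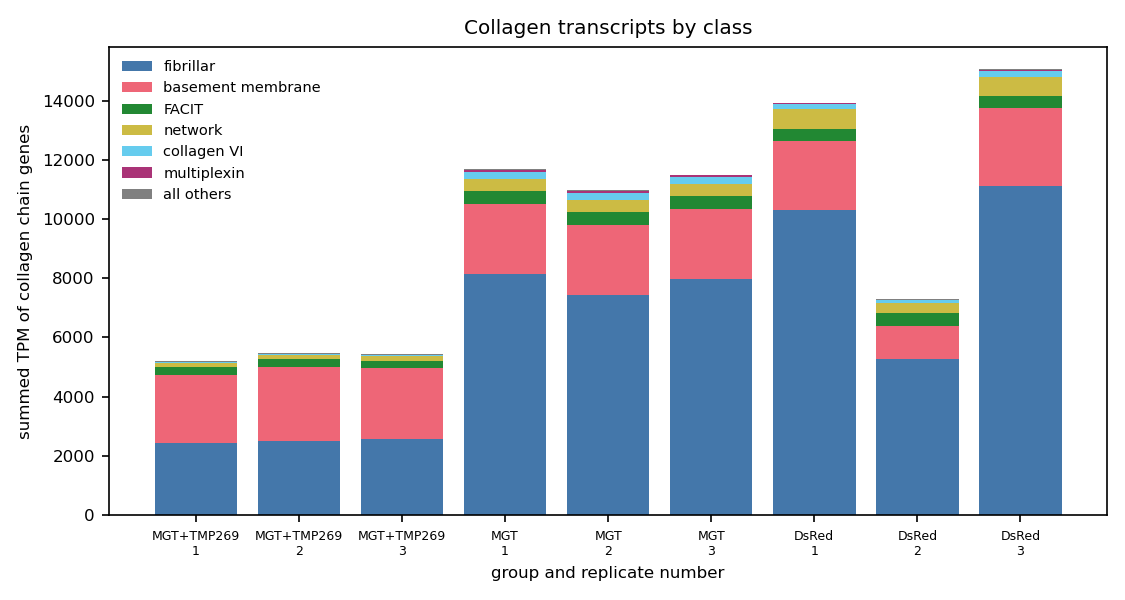
Summed TPM of the collagen chain genes in each library (vertical axis, from 0), stacked by class, for the 3 groups of 3 libraries. The collagen IV part is of like height in the MGT+TMP269 and MGT libraries while the fibrillar part is smaller with TMP269, and DsRed replicate 2 is lower than the other DsRed libraries in both.

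The chains of collagen VI differed from each other in their course. Its common form needs the alpha1, alpha2 and alpha3 chains together, and Col6a1 and Col6a2 are neighbours while Col6a3 lies on another chromosome. Col6a3 was at 13.1, 11.6 and 12.1 TPM in the MGT+TMP269 libraries, 140.4, 146 and 131 TPM in the MGT libraries and 27.5, 18.3 and 35.3 TPM in the DsRed libraries. The MGT libraries stood far above all others, and the MGT+TMP269 libraries were below the DsRed libraries. Col6a3 rose 5.14-fold in MGT against DsRed (log2 2.36 ± 0.21, adjusted p = 5.46e-05, and 4.42-fold without DsRed replicate 2), fell 11.3-fold in MGT+TMP269 against MGT (log2 −3.40 ± 0.21, adjusted p = 3.07e-05) and fell 2.21-fold in MGT+TMP269 against DsRed (log2 −1.03 ± 0.21, adjusted p = 0.00643). Among the tested collagen genes, its log2 fold change for MGT+TMP269 against MGT was the lowest.

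Col6a1 was at 18.8, 18.5 and 20.0 TPM in the MGT+TMP269 libraries, 57.6, 60.4 and 58.7 TPM in the MGT libraries and 105, 53.0 and 119 TPM in the DsRed libraries. Col6a2 was at 12.4, 12.5 and 12.8 TPM in the MGT+TMP269 libraries, 33.3, 34.0 and 35.2 TPM in the MGT libraries and 49.5, 30.7 and 58.5 TPM in the DsRed libraries. Both were lowest with TMP269, 3.08-fold and 2.72-fold below MGT (adjusted p = 0.00451 and 0.00332) and 4.83-fold and 3.68-fold below DsRed (limma adjusted p = 0.0003 for each), and unlike Col6a3 neither was called higher in MGT than in DsRed. Without DsRed replicate 2 both were called lower in MGT than in DsRed (log2 −0.91, adjusted p = 7.43e-05 for Col6a1, and log2 −0.64, adjusted p = 0.00112 for Col6a2). The Col6a3/Col6a1 ratio within a library was 0.694, 0.628 and 0.605 in the MGT+TMP269 libraries, 2.44, 2.41 and 2.22 in the MGT libraries and 0.262, 0.346 and 0.297 in the DsRed libraries. The groups did not overlap, with log2 differences of −1.88 for MGT+TMP269 against MGT, 1.10 for MGT+TMP269 against DsRed and 2.97 for MGT against DsRed (exact p = 0.1 for each). The Col6a2/Col6a1 ratio moved far less, with log2 differences of 0.18, 0.36 and 0.18 in the same order. The chains that can stand in for alpha3, Col6a4, Col6a5 and Col6a6 stayed below the filter. Col6a6 was at 0.607, 0.429 and 0.401 TPM in the MGT+TMP269 libraries, 0.459, 0.443 and 0.250 TPM in the MGT libraries and 0.0143, 0.0308 and 0.0217 TPM in the DsRed libraries, so that all DsRed values were below all others, at levels too low to be tested.

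The network-forming collagens went opposite ways with the MGT virus. Col10a1, the collagen of hypertrophic cartilage, was at 51.5, 51.0 and 50.4 TPM in the MGT+TMP269 libraries, 149.6, 129 and 136 TPM in the MGT libraries and 0.898, 0.541 and 1.14 TPM in the DsRed libraries. Every library with the MGT virus was far above every DsRed library, and the MGT libraries were above the MGT+TMP269 ones. In MGT against DsRed it rose by log2 6.24 ± 0.15 (limma adjusted p = 1.09e-08), the highest value of any collagen gene, and in MGT+TMP269 against DsRed by 4.82 ± 0.15 (adjusted p = 4.27e-08). No fold is given against a DsRed mean under 1 TPM. Against MGT, it fell 2.71-fold with TMP269 (log2 −1.42 ± 0.15, adjusted p = 0.000467).

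As background, in the growth plate of mice Mef2c is known to drive and Hdac4 to restrain the maturation of cartilage cells to the hypertrophic state that Col10a1 marks. Of a list of 12 other cartilage genes, 7 were tested. None was called higher and 3 were called lower (Acan, Sox9 and Spp1) in MGT+TMP269 than in MGT, where 3.32% and 5.97% of all tested genes were. In MGT+TMP269, none was higher and 4 were lower than in DsRed, where 14.7% and 8.06% were. In MGT, 1 was called higher (Acan) and 2 lower (Sox9 and Mmp13) than in DsRed, where 8.14% and 4.18% were. Spp1 had means of 32.7 TPM in MGT+TMP269, 1039 TPM in MGT and 478 TPM in DsRed. The macrophage marker sums given below had the same order of groups, as did Acan and Col6a3, and the source of Spp1 was not tested. Acan, the aggrecan core protein of cartilage, was at 2.00, 2.67 and 2.95 TPM in the MGT+TMP269 libraries, 49.9, 48.8 and 53.6 TPM in the MGT libraries and 16.7, 6.80 and 12.8 TPM in the DsRed libraries. It rose in MGT against DsRed (log2 2.06 ± 0.28, adjusted p = 0.000865) and fell with TMP269 against MGT (log2 −3.88 ± 0.28, adjusted p = 5.4e-05). Sox9, the cartilage lineage factor, was lower in both MGT+TMP269 (1.44 ± 0.190 TPM) and MGT (5.18 ± 0.495 TPM) than in DsRed (13.8 ± 1.12 TPM), and Ihh and Ibsp had group means of at most 0.118 TPM.

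For Col10a1 and Col6a3, the bases before the RefSeq start are shown because these genes rose with the MGT virus and fell with TMP269. Capitals mark the letters TATAAA in Col10a1, and the Col6a3 sequence, which has no capitals, ends short of that start because another RefSeq model of the gene begins there.
Col10a1 chr10:34389731-34389980 (plus strand): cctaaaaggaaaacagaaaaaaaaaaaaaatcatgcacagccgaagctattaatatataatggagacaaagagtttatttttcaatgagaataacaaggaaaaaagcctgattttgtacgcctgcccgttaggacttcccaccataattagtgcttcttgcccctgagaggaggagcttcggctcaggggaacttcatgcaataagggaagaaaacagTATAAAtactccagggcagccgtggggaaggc
Col6a3 chr1:90844002-90844221 (minus strand): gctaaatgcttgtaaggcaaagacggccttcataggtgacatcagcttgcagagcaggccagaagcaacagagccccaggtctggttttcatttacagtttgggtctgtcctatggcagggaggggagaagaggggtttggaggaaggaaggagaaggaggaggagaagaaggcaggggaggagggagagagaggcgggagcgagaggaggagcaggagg
The 250 bases before the start were searched on both strands for the MEF2 consensus, for AGATAA, a core bound by Gata4 and its relatives, for AGGTGT, a core bound by Tbx5 and its relatives, and for TATAAA, in these 4 genes and in all 32851 promoter windows of the RefSeq table, of which 2.92%, 9.99%, 11.8% and 12.4% held them. The MEF2 consensus and TATAAA can share letters. TATAAA begins 32 bases before the start of Col10a1 and 117 bases before that of Col3a1, AGGTGT begins 246 bases before the start of Col1a2, and no other match was present in these 4 windows. Windows were present for 35 of the 44 members. A match in this window is a description of letters and not a site, and the lack of one covers only these bases.

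Col8a1, a short-chain collagen of vessel walls and of the cornea, was at 84.5, 85.1 and 93.4 TPM in the MGT+TMP269 libraries, 277, 274 and 277 TPM in the MGT libraries and 682, 343 and 629 TPM in the DsRed libraries. The 3 groups did not overlap, with MGT+TMP269 lowest and DsRed highest. It fell 3.15-fold in MGT+TMP269 against MGT (log2 −1.64 ± 0.22, adjusted p = 0.00176) and 6.29-fold in MGT+TMP269 against DsRed (log2 −2.58 ± 0.22, adjusted p = 3.51e-05). Its fall in MGT against DsRed (log2 −0.93 ± 0.22, adjusted p = 0.0231) lost its call in the fits without 1 MGT library or without DsRed replicate 1 or 3 (adjusted p up to 0.079) and was 2.38-fold without DsRed replicate 2 (adjusted p = 4.1e-06). Its partner Col8a2 had group means of 0.635 to 2.89 TPM and was not called in any comparison.

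The FACIT collagens split. Of 9 genes, 6 were tested. In MGT+TMP269, 2 were lower and none higher than in MGT, where 5.97% and 3.32% of all tested genes were. In MGT, 3 were higher and 2 lower than in DsRed, where 8.14% and 4.18% of all tested genes were. Of those called higher, Col20a1 and Col22a1 had means under 1 TPM in DsRed and passed the filter only through the groups with the MGT virus. Col12a1, which coats type I fibrils in tendon and other loaded tissue, was at 164, 156 and 157 TPM in the MGT+TMP269 libraries, 287, 279 and 279 TPM in the MGT libraries and 128, 117 and 149 TPM in the DsRed libraries. The MGT libraries were above all others. It rose 2.15-fold in MGT against DsRed (log2 1.10 ± 0.11, adjusted p = 0.000112), fell 1.77-fold in MGT+TMP269 against MGT (log2 −0.82 ± 0.11, adjusted p = 0.00143), and was not called between MGT+TMP269 and DsRed (adjusted p = 0.0885, and higher with TMP269 at 0.0238 without DsRed replicate 3). The Col12a1/Col1a1 ratio, highest with TMP269 and lowest in DsRed without overlap between groups (exact p = 0.1 for each comparison), was 0.151, 0.141 and 0.138 in the MGT+TMP269 libraries, 0.0804, 0.0874 and 0.0818 in the MGT libraries and 0.0409, 0.0771 and 0.0428 in the DsRed libraries.

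Col14a1, another coat of type I fibrils, took the other course, at 35.1, 38.2 and 37.0 TPM in the MGT+TMP269 libraries, 27.5, 22.1 and 26.1 TPM in the MGT libraries and 99.2, 56.4 and 97.2 TPM in the DsRed libraries. The MGT libraries were lowest, the MGT+TMP269 libraries lay between, and no groups overlapped. It fell 3.34-fold in MGT against DsRed (log2 −1.66 ± 0.21, adjusted p = 0.000597) and 2.29-fold in MGT+TMP269 against DsRed (log2 −1.13 ± 0.21, adjusted p = 0.0044). The higher values with TMP269 than with MGT alone missed the threshold (log2 0.53 ± 0.21, adjusted p = 0.174), and passed it without DsRed replicate 2 (adjusted p = 0.00326).

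Col16a1, a FACIT of connective tissue, was at 55.8, 58.9 and 51.0 TPM in the MGT+TMP269 libraries, 91.4, 116 and 108 TPM in the MGT libraries and 161, 260.1 and 163 TPM in the DsRed libraries. DsRed replicate 2 was the highest of the 9 libraries, and MGT+TMP269 lay below MGT and MGT below DsRed without overlap. Its falls in MGT against DsRed and in MGT+TMP269 against MGT (log2 −0.85 ± 0.19 and −0.91 ± 0.19, limma adjusted p = 0.0164 for each to 3 digits) were lost when certain single libraries were left out, MGT replicate 1 or 3 in the first case, and MGT+TMP269 replicate 1 or 3 or MGT replicate 2 or 3 in the second (adjusted p up to 0.0781). In MGT+TMP269 against DsRed it fell 3.52-fold (adjusted p = 0.000148, and 2.93-fold without DsRed replicate 2).

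Col22a1, a FACIT found at the junction of muscle and tendon, was at 10.2, 10.7 and 10.1 TPM in the MGT+TMP269 libraries, 18.9, 22.2 and 21.6 TPM in the MGT libraries and 0.283, 0.455 and 2.06 TPM in the DsRed libraries. Every library with the MGT virus was above every DsRed library, and MGT+TMP269 was below MGT without overlap. It rose by log2 3.61 ± 0.30 in MGT against DsRed (limma adjusted p = 3.61e-05) and by 2.66 ± 0.30 in MGT+TMP269 against DsRed (adjusted p = 0.000192), and was not called between MGT+TMP269 and MGT (log2 −0.95 ± 0.30, adjusted p = 0.0879; 0.0346 without DsRed replicate 2 and 0.00586 without DsRed replicate 3). Col20a1 was scarce, at 2.91, 3.23 and 2.68 TPM in the MGT+TMP269 libraries, 2.05, 2.33 and 5.21 TPM in the MGT libraries and 0.528, 1.06 and 0.598 TPM in the DsRed libraries. It was higher in MGT+TMP269 and in MGT than in DsRed (limma adjusted p = 0.0159 and 0.0222), and each call was lost without any 1 of several libraries (adjusted p up to 0.0684). The cartilage collagen IX genes were low or absent, with Col9a3 at group means of 0.749 to 1.60 TPM, Col9a2 at most 0.719 and Col9a1 listed at 0 in all 9 libraries.

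The multiplexins Col15a1 and Col18a1 encode proteoglycan-like collagens of the basement membrane zone, and the end of the Col18a1 product is known as endostatin. Col15a1 was at 5.73, 7.86 and 7.02 TPM in the MGT+TMP269 libraries, 53.1, 60.1 and 50.2 TPM in the MGT libraries and 9.93, 5.92 and 11.9 TPM in the DsRed libraries. The MGT libraries stood above all others, while MGT+TMP269 and DsRed overlapped. It rose 5.89-fold in MGT against DsRed (log2 2.48 ± 0.23, adjusted p = 9.02e-05), fell 7.93-fold in MGT+TMP269 against MGT (log2 −2.82 ± 0.23, adjusted p = 0.000119) and was not called between MGT+TMP269 and DsRed (adjusted p = 0.311, and 0.013 without DsRed replicate 2). Col18a1 was at 4.75, 3.47 and 4.88 TPM in the MGT+TMP269 libraries, 20.5, 17.6 and 18.1 TPM in the MGT libraries and 17.4, 8.92 and 17.2 TPM in the DsRed libraries. It fell 4.29-fold with TMP269 against MGT (log2 −1.89 ± 0.25, adjusted p = 0.00159) and 3.32-fold against DsRed (log2 −1.49 ± 0.25, adjusted p = 0.00262), with no call between MGT and DsRed (adjusted p = 0.376).

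**Figure D4:**
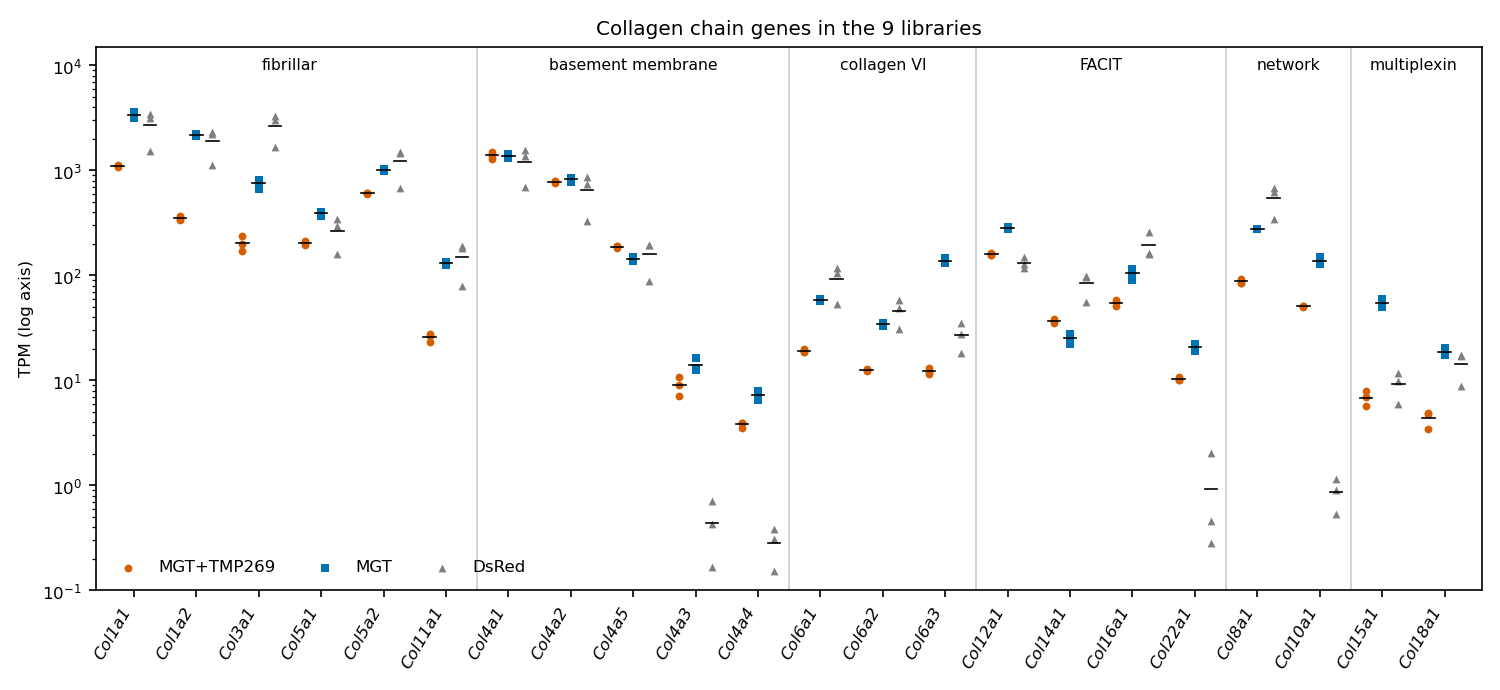
TPM (vertical axis, log scale) of 22 collagen chain genes in the 9 libraries, 1 point per library and a bar at the mean of 3, with MGT+TMP269, MGT and DsRed from left to right for each gene. Col6a3, Col10a1, Col12a1 and Col15a1 are highest in MGT, most fibrillar chains are lowest with TMP269, Col4a1 and Col4a2 lie at like levels, and Col4a3, Col4a4, Col10a1 and Col22a1 are lowest in DsRed.

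Col7a1, the collagen of the anchoring fibrils of skin, was at 4.87, 7.51 and 3.98 TPM in the MGT+TMP269 libraries, 8.27, 7.51 and 11.3 TPM in the MGT libraries and 7.02, 22.3 and 14.0 TPM in the DsRed libraries, with DsRed replicate 2 the highest library, and was not called in any comparison (smallest adjusted p = 0.0506, MGT+TMP269 against DsRed, which became 0.00878 without DsRed replicate 1). Col28a1 was at 0.168, 0.268 and 0.219 TPM in the MGT+TMP269 libraries, 0.370, 0.627 and 0.292 TPM in the MGT libraries and 4.58, 0.802 and 2.03 TPM in the DsRed libraries, and its lower value in MGT+TMP269 than in DsRed (limma adjusted p = 0.0261) lost its call without any 1 of the MGT+TMP269 libraries (adjusted p up to 0.0777). Its lower value in MGT than in DsRed was not called (adjusted p = 0.0808), but was without DsRed replicate 2 (log2 −1.53, adjusted p = 0.00649) and, with all libraries, under median-ratio scaling, quantile normalization and array weights (adjusted p = 0.0386, 0.0101 and 0.00318). Col28a1 passed the filter only through DsRed, the group in which it was high, so these calls are no independent support for a fall. Col26a1 had group means of 0.675 to 1.73 TPM and was not called. The 4 transmembrane collagen genes, Col13a1, Col17a1, Col23a1 and Col25a1, were among the 12 members below the filter, whose group means reached at most 1.08 TPM and whose single values reached at most 2.03 TPM, both in Col23a1.

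Of 31 tested genes that make, fold and cross-link collagen, a list drawn up with earlier results of these data known, 17 were called lower and none higher in MGT+TMP269 than in MGT (median log2 fold change −0.71, against 0.11 over all tested genes). Of all tested genes, 5.97% were called lower and 3.32% higher in this comparison. Fkbp10, a chaperone of procollagen, was at 129, 124 and 123 TPM in the MGT+TMP269 libraries, 327, 337 and 316 TPM in the MGT libraries and 246, 241 and 267 TPM in the DsRed libraries. The 3 groups did not overlap, and it fell 2.60-fold with TMP269 against MGT (log2 −1.37 ± 0.09, adjusted p = 4.06e-05). Pcolce2, an enhancer of procollagen processing, and P3h4, a partner of the lysyl hydroxylases, fell 2.55-fold and 1.95-fold (limma adjusted p = 0.000628 and 0.000742). In MGT+TMP269 against DsRed, 3 genes of the list were higher and 14 lower, where 14.7% and 8.06% of all tested genes were called. In MGT against DsRed, 5 genes of the list were higher and 2 lower, where 8.14% and 4.18% of all tested genes were called. P3h2, a prolyl 3-hydroxylase that acts on collagen IV, rose 9.97-fold (log2 3.11 ± 0.21, adjusted p = 8.74e-06) and Creb3l1, a transcription factor known to act on type I collagen genes in bone, rose 3.93-fold (log2 2.01 ± 0.21, adjusted p = 0.000166). Among 11 tested collagen receptors and uptake proteins, 1 was higher and 2 were lower in MGT+TMP269 than in MGT. Against DsRed, 3 were higher and 3 lower in MGT+TMP269, and 1 was higher and 1 lower in MGT. With so few genes tested, these counts are not set apart from the shares of all tested genes given above. Itga11, the integrin alpha chain for fibrillar collagen, was at 1.96 ± 0.120 TPM in MGT+TMP269, 22.7 ± 0.685 TPM in MGT and 45.3 ± 21.9 TPM in DsRed (SD, n = 3 each), a fall with TMP269 against MGT (log2 −3.00 ± 0.35, adjusted p = 0.000789). Ddr1, a collagen-binding kinase, was higher with TMP269 than with MGT alone (log2 0.86 ± 0.22, adjusted p = 0.041).

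Calls among markers of cell types are given for the same comparisons. Of all tested genes, 5.97% were called lower and 3.32% higher in MGT+TMP269 than in MGT. Against DsRed, 8.06% were called lower and 14.7% higher in MGT+TMP269, and 4.18% lower and 8.14% higher in MGT. All 10 macrophage markers were called lower in MGT+TMP269 than in MGT, 9 were lower in MGT+TMP269 than in DsRed and 1 was higher in MGT than in DsRed, with a summed TPM of 94.7 to 141 in MGT+TMP269, 1667 to 3145 in MGT and 625 to 1763 in DsRed, and none was at 0 in every library. Lyz2, the lysozyme gene of myeloid cells, made up most of this sum, at 81.2 ± 17.3 TPM in MGT+TMP269, 1953 ± 622 TPM in MGT and 737 ± 497 TPM in DsRed. Ptprc and Fcgr1, with means of 0.679 and 0.381 TPM in MGT+TMP269, passed the filter only through MGT and DsRed, the groups in which they were high. Endothelial markers, of which 5 of 7 were tested, summed to 6.63 to 6.95, 8.73 to 16.0 and 17.2 to 21.3 TPM in the same order of groups, with none called between MGT+TMP269 and MGT and 2 lower in MGT+TMP269 than in DsRed. Mural cell markers, of which 4 of 6 were tested, summed to 71.4 to 79.9, 114 to 118 and 87.1 to 199.5 TPM, most of it Pdgfrb. Only Cspg4 was called between MGT+TMP269 and MGT, lower with TMP269. Against DsRed, Cspg4 was higher in MGT+TMP269 (7.01-fold, limma adjusted p = 7.29e-06) and in MGT (12.7-fold, limma adjusted p = 1.27e-06). The other 3 tested mural markers were called lower in MGT+TMP269 than in DsRed, and 1 of them was lower in MGT than in DsRed. Among them, Rgs5 had a mean of 0.630 TPM in MGT+TMP269 and passed the filter only through the groups in which it was higher. Of the 8 fibroblast markers, 4 were lower (Tcf21, S100a4, Postn and Dcn) and none higher in MGT+TMP269 than in MGT. In MGT+TMP269, 5 were lower than in DsRed (the same 4 and Pdgfra), and in MGT, 3 were lower than in DsRed (Pdgfra, Tcf21 and Dcn), with Thy1 higher in both comparisons. Their sum, most of it Vim, was 5800.3 to 6019 in MGT+TMP269, 7613 to 7833 in MGT and 7246 to 7856 in DsRed. The part of these cells in the collagen differences was not tested.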

How the data were processed

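RNA sequencing of 9 libraries of neonatal mouse cardiac fibroblasts was deposited as 1 table of TPM per gene. The authors' deposited TPM values came from reads quantified with kallisto, and DESeq2 and the genome build mm9 are also named, per the submitters' processing notes; the sources used here give neither their versions nor the annotation. Per the labels' protocols the library kit keeps strand, but whether strand was used in quantification is not given, so reads of overlapping genes may be mixed. TPM keeps no depth, so the depth of each library is unknown and no counting error is given; the totals over the table were 988020 to 988999 TPM per library.

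Of 34804 rows, 25 carry calendar dates in place of gene symbols (0.123 to 0.176% of the TPM) and were left out. Groups were taken from the sample titles. Genes with a mean of at least 1 TPM over all libraries were tested with limma 3.58.1 in R 4.3.3, on log2(TPM + 1), in 1 model of 3 groups with 6 residual degrees of freedom and a trended variance prior, and p-values were adjusted over all 13228 genes by the Benjamini-Hochberg method. Sums over members and ratios of 2 members within a library were compared by exact two-sided permutation tests over libraries. Members described one by one had a group mean of at least 10 TPM or were called with an absolute log2 fold change of at least 1, which gave 25. Other genes come from lists, with up to 3 of the smallest adjusted p named per list and comparison, except for the cell type markers. Lyz2, Ihh, Ibsp and the members outside the 25 were picked after their values were seen. The members and lists were chosen with earlier results of these data known. Promoter sequences are RefSeq's for GRCm38.p6, and the 4 shown were chosen after the values were seen. Replicate numbers did not pair the libraries. Alternatives were other pseudocounts, filters, scalings and variance models, a replicate block, fits on 2 groups and leaving out each library.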

Additional observations from a re-analysis of the deposited data

How the results depend on the processing

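With 19 alternative settings, most results kept their direction and side of the threshold. The number of collagen chain genes lower in MGT than in DsRed, 4 as reported, was 7 with quantile normalization, 11 with array weights, 2 when only those 2 groups were fitted, and 2 to 11 when 1 library was left out. With median-ratio scaling it was 6, of which 3 were among the 4 reported. The number higher in MGT+TMP269 than in MGT, 0 as reported, was 2 with array weights, 2 when only those 2 groups were fitted, and 0 to 2 when 1 library was left out. The number higher in MGT+TMP269 than in DsRed, 5 as reported, was 3 with a filter of a mean of at least 5 TPM, which tests fewer genes.

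Log2 differences that changed sign were all of genes or sums not called in the fit reported above. For MGT+TMP269 against MGT these were Col20a1 (0.0028 with a pseudocount of 0.1 and 0.0585 with quantile normalization), Col28a1 (0.0796 with quantile normalization) and Col4a1 (−0.0907 with median-ratio scaling). For MGT+TMP269 against DsRed they were Col4a1 (−0.0201) and Col4a5 (−0.0209) with array weights, and for MGT against DsRed Col1a2 (−0.0287) and Col4a1 (−0.0437) with array weights. The log2 difference in summed TPM between MGT and DsRed was 0.0643 when Col1a1, Col1a2 and Col3a1 were left out of the sum. When 1 library was left out, the log2 difference spanned −0.21 to 0.30 for Col20a1 and −0.0326 to 0.0732 for Col4a1 in MGT+TMP269 against MGT. In MGT+TMP269 against DsRed it spanned −0.0766 to 0.52 for Col4a1, −0.043 to 0.66 for Col4a2 and −0.0519 to 0.52 for Col4a5. In MGT against DsRed it spanned −0.52 to 0.12 for Col11a1, −0.0683 to 0.45 for Col1a2, −0.10 to 0.49 for Col4a1, −0.44 to 0.13 for Col4a5, −0.55 to 0.0026 for Col5a2 and −0.35 to 0.10 for the summed TPM. The low ends for Col11a1, Col4a5 and Col5a2 in MGT against DsRed came without DsRed replicate 2, where these genes were called lower in MGT. The cause of these changes in sign was not tested.

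With the replicate number as a block, 0 collagen genes were higher and 13 lower in MGT+TMP269 than in MGT, 5 higher and 15 lower in MGT+TMP269 than in DsRed, and 8 higher and 4 lower in MGT than in DsRed. Libraries of the same number in different groups correlated in their deviations from the group means at −0.0698 to 0.132, with 1 of 9 pairs over 0.1 and 3 of 9 libraries correlating best with their own number, so the numbers were not taken as pairs. TPM carries no depth, so how far read number limits the genes near 1 TPM is unknown.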
